A study of Mus musculus with 24 samples.

Results

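Neurocan (Ncan) and 9 other genes of the perineuronal matrix were followed across all 8 groups of the series: the lecticans Ncan, brevican (Bcan), versican (Vcan) and aggrecan (Acan), the link proteins Hapln1 and Hapln4, the tenascins Tnr and Tnc, and the membrane proteins Cspg5 and Ptprz1. Each of the 10 has exactly 1 feature on the array that names no other gene, and the 10 stand among 30142 genes with a feature of their own. For Ncan, Tnc and Vcan the annotation lists the same symbol more than once, which was read as 1 symbol. Ncan itself was chosen by a measured value: its signal in the ventromedial hypothalamus (VMH) differed between genotypes on high fat diet (HFD). That difference is therefore given as a description with no test, and the same measure on standard diet (SD), which that choice did not use, is tested. This is not an independent test. The 10 genes were chosen with earlier results of these data known, and the fit takes its spread from all 12 VMH arrays, those on HFD included. The other 9 genes were set beside Ncan as parts of the same matrix.

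Total RNA came from the VMH, a part of the hypothalamus that controls feeding and energy use, and from brown adipose tissue (BAT), the fat depot that produces heat, and was hybridised to 24 Affymetrix arrays. In each tissue 3 arrays came from Gfap-Bmal1 cKO mice on HFD, 3 from control mice on HFD, 3 from Gfap-Bmal1 cKO mice on SD and 3 from control mice on SD, after 16 weeks of either diet. The cKO mice have lost Bmal1, a transcription factor gene of the circadian clock, in cells that use Gfap, which marks astrocytes but is also active in neural stem cells and in some glia of peripheral nerve. The sources used here do not give the deleted exons, the strain, or the sex and age of the mice. Whether the 3 arrays of a group stand for 3 mice is not stated, so each p-value measures the spread between arrays, and their number limits its precision.

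Lecticans are chondroitin sulfate proteoglycans that bind hyaluronan at one end and tenascins at the other. Link proteins of the Hapln family lock the lectican to hyaluronan, and tenascin-R joins several lecticans, so that the mesh condenses into perineuronal nets around some neurons and stays looser elsewhere. Neurocan and brevican are made by astrocytes and also by neurons, and in the mediobasal hypothalamus nets have been described around neurons of the arcuate nucleus, next to the VMH. The arrays measured RNA of whole tissue. They give no protein and no position, and fewer cells of a type and less RNA per cell cannot be told apart in them.

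Since Bmal1 encodes a factor that binds E-boxes, the stretch upstream of the start site is shown for Ncan, the member with a called genotype difference. It is taken 5′ to 3′ from the RefSeq promoter table of build GRCm38.p6, as the 250 bases before the start, with each CANNTG in capitals. Ncan lies on the minus strand at chr8:70120845-70121094.
Ncan: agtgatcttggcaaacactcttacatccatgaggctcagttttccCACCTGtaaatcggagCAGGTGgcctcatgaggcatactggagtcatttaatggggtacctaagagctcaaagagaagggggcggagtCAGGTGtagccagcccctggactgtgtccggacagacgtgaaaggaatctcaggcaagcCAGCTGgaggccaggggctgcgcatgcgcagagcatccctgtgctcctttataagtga
The Ncan stretch held 4 CANNTG matches, of which 1 read CACCTG, 2 read CAGGTG and 1 read CAGCTG. The motif CANNTG is its own reverse complement and was found in 66.2% of the 32851 promoters of the same length. The E-box form CACGTG, its own reverse complement, and the form CACGTT, searched on both strands, were not found in it, against 6.02% and 3.85% of all promoters. CACGTG is a form of CANNTG and is counted under it as well, while CACGTT is not. The D-box form TTATGTAA, searched on both strands, was not found in it and was in 0.819% of all promoters. Of the 10 genes, 8 matched the table, Cspg5 and Hapln4 did not, and the other matched members held no CACGTG or CACGTT either. A match describes letters only, and its absence describes only this window.

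Values are log2 signals as deposited. A gene was tested in a tissue when its mean over the 12 arrays was at least that of the middle feature of the table (5.51 for VMH, 4.13 for BAT), and a difference was called at an adjusted p under 0.05 (limma, two-sided, Benjamini-Hochberg over all genes tested in the tissue). This kept 16211 genes in VMH and 17124 in BAT. Of the members, 8 of 10 passed in VMH, with Acan and Tnc under the minimum, and 4 of 10 passed in BAT: Ncan, Vcan, Hapln4 and Tnc. The signal of one probe set cannot be ranked against that of another, so every comparison below is between groups for the same gene.

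The tissue labels were borne out by the marker lists. The mean of 8 neuron markers was 12.61 to 12.93 on VMH arrays and 3.62 to 3.75 on BAT arrays. The mean of 8 brown adipocyte markers was 4.48 to 4.71 on VMH arrays and 10.76 to 16.04 on BAT arrays. It was lowest in BAT on control array 1 on SD (10.76) and cKO array 2 on SD (12.53). On the other BAT arrays it lay between 14.34 and 16.04. All 7 VMH neuron markers passed the minimum in VMH. Of 5 measured genes of the fast-spiking neurons that often carry nets, Kcnc1 and Gad1 passed in VMH and Pvalb, Kcns3 and Lhx6 did not. Bmal1 (Arntl) was not lower on the arrays labelled cKO: in VMH it averaged 9.19 ± 0.30 in cKO and 8.95 ± 0.23 in controls on HFD, and 9.17 ± 0.21 in cKO and 8.62 ± 0.16 in controls on SD (SD, n = 3 each). In BAT it averaged 6.80 ± 0.30 in cKO and 6.46 ± 0.20 in controls on HFD, and 6.40 ± 0.75 in cKO and 6.0 ± 0.30 in controls on SD (SD, n = 3 each). Each genotype below therefore rests on its label. In BAT the arrays differed in skeletal muscle RNA: the mean of 8 muscle markers lay between 5.61 and 13.53 in cKO on HFD, between 5.65 and 10.05 in controls on HFD, between 15.11 and 17.89 in cKO on SD, and at 18.08, 5.61 and 16.99 on the 3 control arrays on SD. Control array 2 on SD and cKO array 1 on HFD stood lowest in their groups, and members' BAT differences that either array moves are given with and without it.

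Ncan, which encodes the secreted lectican neurocan, was about 2-fold higher in VMH of cKO mice on either diet. On HFD its log2 signal was 11.13, 11.22 and 11.40 on the 3 cKO arrays, against 10.06, 10.40 and 10.26 on the 3 control arrays. The cKO arrays averaged 11.25 ± 0.14 and the control arrays 10.24 ± 0.17 (SD, n = 3 each), a difference of 1.01 (95% interval 0.74 to 1.28), or 2.02-fold. This is the difference that brought Ncan forward, and it is not tested. On SD the signal was 11.27, 11.58 and 11.19 on the 3 cKO arrays, against 10.36, 10.26 and 10.49 on the 3 control arrays. Every cKO array lay above every control array on both diets, with the lowest cKO array at 11.13 and the highest control array at 10.49.

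The SD arrays averaged 11.35 ± 0.21 in cKO and 10.37 ± 0.12 in controls (SD, n = 3 each), a difference of 0.98 ± 0.12 (SE; 95% interval 0.71 to 1.24) or 1.97-fold, and Ncan rose with a limma adjusted p of 0.00573. It ranked 18 by p among the 16211 genes, of which 0.271% were called in this comparison and 0.253% as higher. The estimate of the spread was shared by the 12 VMH arrays, the HFD arrays included. With only the 6 SD arrays in the fit the difference of 0.98 had an adjusted p of 0.0941 and was not called, and that fit called 0.0617% of all genes. Leaving out any one of the 12 arrays kept the call, with differences of 0.86 to 1.05 and adjusted p of 0.00688 to 0.0324.

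Diet left no called difference in VMH Ncan. HFD minus SD was -0.10 (95% interval -0.36 to 0.17) in cKO and -0.13 (-0.40 to 0.14) in controls. The interaction of genotype and diet, the genotype difference on HFD minus that on SD, was 0.04 with an interval of -0.34 to 0.41 and changed sign when single arrays were left out. The HFD values by which Ncan was chosen enter each of these differences, so they are a description. In order of level the groups were cKO on SD, cKO on HFD, control on SD and control on HFD, and within a genotype the 2 diets overlapped.

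**Figure D1:**
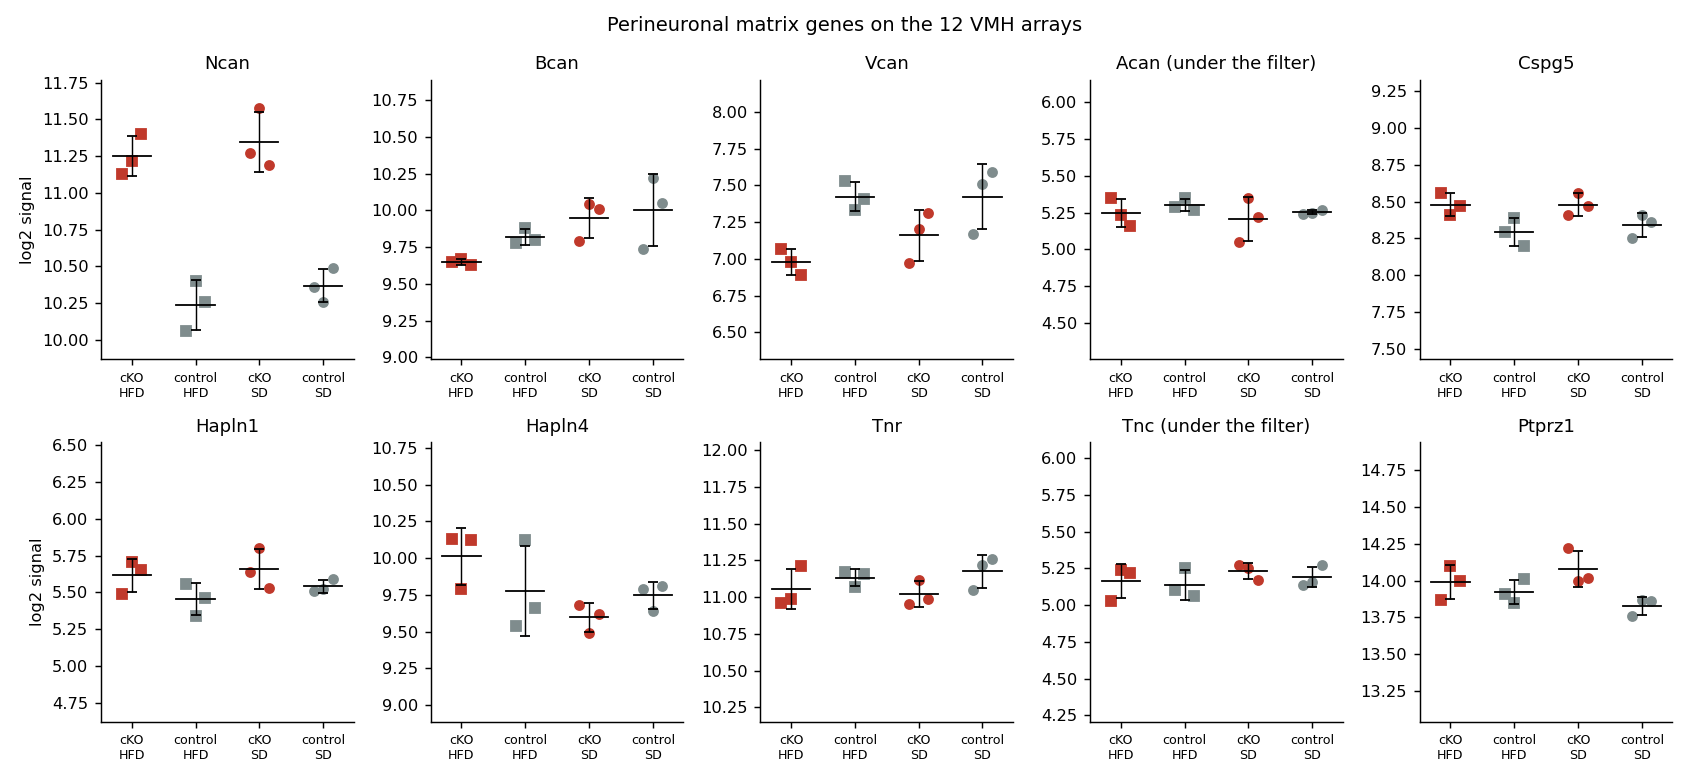
Log2 signal (vertical axis) of the 10 genes on the 12 VMH arrays, by group (horizontal axis: cKO and control on HFD, cKO and control on SD); points are arrays, horizontal lines group means and bars the SD, n = 3. Each panel has its own scale of at least 1.9 log2 units. In the Ncan panel the cKO arrays sit between 11.13 and 11.58 and the control arrays between 10.06 and 10.49.

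Among the other secreted lecticans no difference passed the test in VMH. Vcan, versican, which is made by oligodendrocyte precursors and by cells of connective tissue, had signals of 7.07, 6.98 and 6.89 on cKO arrays on HFD, against 7.53, 7.33 and 7.41 on control arrays on HFD. Those groups did not overlap, with the cKO arrays lower: the difference was -0.44 ± 0.12 (SE; 95% interval -0.70 to -0.19, limma adjusted p = 0.222). On SD the cKO arrays had 6.97, 7.20 and 7.31 and the control arrays 7.17, 7.51 and 7.59, which overlap, with a difference of -0.26 ± 0.12 and an adjusted p of 0.732. Vcan was thus below its controls in mean on both diets, opposite in sign to Ncan.

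Bcan, brevican, a lectican of the adult brain, had 9.65, 9.67 and 9.63 on cKO arrays on HFD, against 9.78, 9.88 and 9.80 on control arrays on HFD. These did not overlap, yet the difference was small at -0.17 (95% interval -0.41 to 0.07; limma adjusted p = 0.577). On SD the Bcan arrays were 9.79, 10.04 and 10.01 in cKO and 9.74, 10.22 and 10.05 in controls, with a difference of -0.06 whose sign changed when single arrays were left out. Acan, aggrecan, the core lectican of perineuronal nets, stayed between 5.05 and 5.35 over all 12 arrays, under the minimum for testing.

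The link proteins did not differ between genotypes beyond the test's threshold. Hapln4, a link protein that works with brevican in nets, had 10.13, 9.79 and 10.12 on cKO arrays on HFD and 9.54, 10.12 and 9.66 on control arrays on HFD; 1 control array reached the level of the cKO arrays. On SD it had 9.68, 9.49 and 9.62 in cKO and 9.79, 9.64 and 9.81 in controls. The differences were 0.24 on HFD (95% interval -0.07 to 0.56) and -0.15 on SD (-0.47 to 0.16), and their own difference, the interaction, was 0.40 (-0.05 to 0.84; limma adjusted p = 0.877). Hapln1, the link protein of cartilage and of nets, stayed between 5.34 and 5.80, with differences of 0.16 on HFD and 0.12 on SD.

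Of the tenascins, Tnr, tenascin-R, made by oligodendrocytes and some neurons, stayed between 10.95 and 11.26, with differences of -0.08 on HFD and -0.16 on SD. Tnc, tenascin-C, a glycoprotein of developing and injured tissue, stayed between 5.03 and 5.27, under the minimum. Of the membrane proteins, Cspg5, a transmembrane proteoglycan also called neuroglycan C, had 8.56, 8.41 and 8.47 on cKO arrays on HFD, against 8.29, 8.39 and 8.20 on control arrays on HFD. The cKO arrays were the higher ones, by 0.19 (95% interval 0.03 to 0.35; limma adjusted p = 0.378), and on SD the difference was 0.14 with arrays that overlapped. Ptprz1 encodes a receptor phosphatase whose shed form, phosphacan, binds tenascins. It had 14.22, 14.00 and 14.02 on cKO arrays on SD, against 13.76, 13.87 and 13.86 on control arrays on SD, a difference of 0.25 ± 0.081 (SE; adjusted p = 0.583) with no overlap, and on HFD the difference was 0.06 with overlap.

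Counted together, 1 of the 8 tested members was called on SD, Ncan, beside 0.271% of all genes. On SD the groups did not overlap for 2 of the 8, Ncan and Ptprz1, beside 9.93% of all genes. The median difference of the 8 was 0.03 with 4 positive, against a median of 0.02 and 57.2% positive over all genes. On HFD, where Ncan was chosen and is left out of the count, 0 of the other 7 were called, beside 0.302% of all genes. Of these 7, 3 did not overlap, Cspg5 higher and Vcan and Bcan lower, beside 20.1%, and the median was 0.06 with 4 positive, against 0.03 and 59.7%. Without Ncan the smallest adjusted p among members was 0.583 on SD and 0.222 on HFD.

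**Figure D2:**
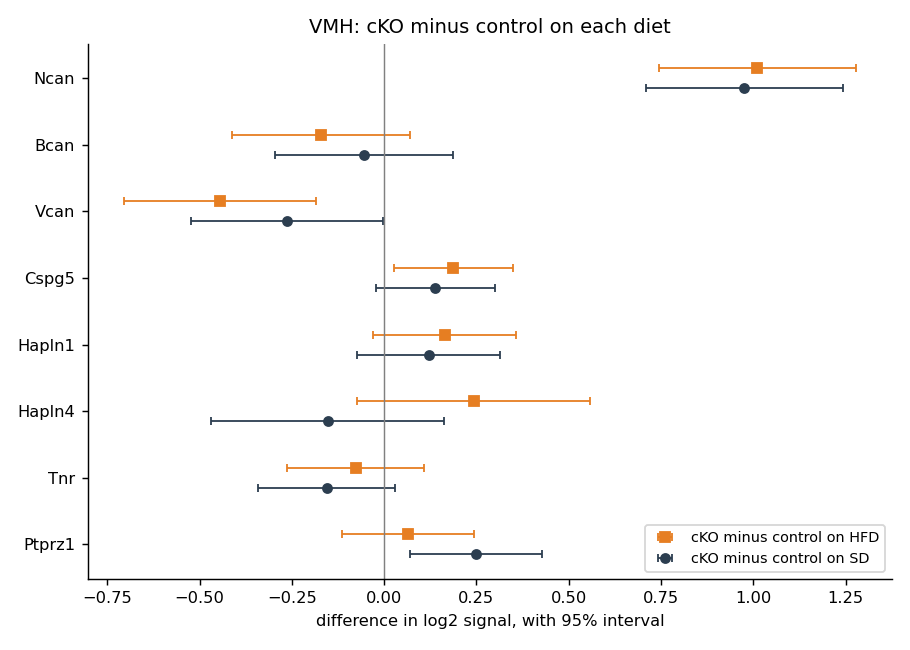
Difference in log2 signal between cKO and control VMH arrays (horizontal axis, with 95% interval from limma) for the 8 members that passed the minimum (vertical axis), on HFD (squares, upper) and on SD (circles, lower), n = 3 arrays a group. Ncan lies at 1.01 and 0.98, and the other 7 lie between -0.44 and 0.25.

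No member was called between diets in VMH. In cKO mice 0 of 8 were called, beside 0.00617% of all genes (1 gene by limma, with 1549 at an unadjusted p under 0.05), and in control mice 0 of 8, beside 0% (0 genes by limma, with 1377 at an unadjusted p under 0.05). In cKO mice the arrays did not overlap for 2 of 8 members, beside 17.6% of all genes. Hapln4 was 0.42 ± 0.14 higher on HFD than on SD (SE; adjusted p = 0.387) and the difference of Bcan was -0.30 ± 0.11 (adjusted p = 0.421). In control mice all 8 overlapped, beside 12.5% that did not overlap among all genes. The interaction was called for 0 of 8 members, beside 0% (0 genes by limma, with 911 at an unadjusted p under 0.05). Ncan is among the 8, although the HFD values that chose it enter these comparisons. Over the other 7 members 0 were called in each, and the same 2 did not overlap in cKO mice. The 8 neuron markers were read on the same arrays, with 0 called. For HFD minus SD all 8 were positive in cKO (median 0.16) and 3 in controls (-0.03), beside 59.6% and 56% of genes. Between genotypes 8 were positive on HFD (0.12), 2 on SD (-0.05), and 8 in the interaction (0.18). All 7 VMH neuron markers were positive between diets, with medians of 0.38 in cKO and 0.30 in controls. Their part in the members' differences was not tested.

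The enzymes that build and sulfate chondroitin chains, which the lecticans carry, had no called difference between genotypes in VMH. Of 21 genes listed, 16 were tested and 0 were called on either diet, with medians of -0.0003 on HFD and -0.04 on SD. The brightest were Chst11, a chondroitin sulfotransferase, at -0.01 on HFD and 0.11 on SD, and Fam20b, a xylose kinase of the linker, at 0.10 and -0.06. Of 12 genes of hyaluronan synthesis, binding and breakdown, 7 were tested and 0 were called; Ugdh, which makes the sugar precursor, was at -0.10 on HFD and 0.02 on SD, and the link protein gene Hapln2 at -0.23 and -0.17.

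Of 16 lectican proteases and inhibitors, 8 were tested and 1 rose on either diet, beside 0.302% of all genes called on HFD and 0.271% on SD. The list was chosen with earlier results of these data known, so this count and the values of Mmp14 are a description. Mmp14, a membrane-bound metalloprotease, averaged 8.95 ± 0.12 in cKO and 6.96 ± 0.068 in controls on HFD, and 9.33 ± 0.31 in cKO and 7.29 ± 0.085 in controls on SD (SD, n = 3 each). Its differences were 1.99 on HFD (limma adjusted p = 0.000195) and 2.04 on SD (adjusted p = 0.000153). The lowest of the 8 stood at -0.23 on HFD and -0.24 on SD, and their median was 0.07 on HFD and 0.02 on SD. Of 20 receptors and partners of the matrix, 18 were tested and 0 were called on either diet. The adhesion genes Cntn1 and Ncam1 were at -0.05 and -0.05 on HFD and at -0.06 and -0.15 on SD, and the largest difference on SD was that of Ptn, a growth factor that binds phosphacan, at 0.65 (adjusted p = 0.468), named after its value was seen. Averaged over the diets 1 of the 18 rose, Mdk, a growth factor related to Ptn, by 0.26 (limma adjusted p = 0.0197), beside 0.66% of all genes called.

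Markers of glia were read on the same arrays. Gfap averaged 12.42 ± 0.52 in cKO and 11.33 ± 0.38 in controls on HFD, and 12.98 ± 0.25 in cKO and 11.45 ± 1.1 in controls on SD (SD, n = 3 each), and it was not called. Of 10 astrocyte markers 0 were called on either diet. On HFD 7 were positive, beside 59.7% of all genes, and the 10 ran from -0.31 to 1.09 with a median of 0.01. On SD 6 were positive, beside 57.2%, and the 10 ran from -0.46 to 1.53 with a median of 0.11. The 2 brightest, Slc1a2 and Aldoc, were at -0.30 and 0.01 on HFD and at -0.16 and -0.08 on SD. Averaged over the diets, where 0.66% of all genes were called, 1 of the 10 rose: Aqp4, a water channel of astrocyte endfeet, by 0.48 (limma adjusted p = 0.0479). The averaged comparison was not repeated under other processing settings. Aqp4 averaged 8.39 ± 0.14 in cKO and 7.96 ± 0.15 in controls on HFD, and 8.65 ± 0.026 in cKO and 8.13 ± 0.28 in controls on SD (SD, n = 3 each). Its groups did not overlap on either diet, beside 20.1% of all genes on HFD and 9.93% on SD. The astrocyte list mean ran from 10.31 to 10.46 in cKO and from 10.17 to 10.33 in controls on HFD, and from 10.35 to 10.58 in cKO and from 9.96 to 10.52 in controls on SD. With the astrocyte mean as a covariate, an alternative chosen after seeing the data, the SD difference of Ncan was 0.94 with a limma adjusted p of 0.0179. The same fit called 0.722% of all genes, against 0.271% without the covariate. The list mean overlapped between genotypes on both diets and averages markers with differences of either sign. This fit therefore cannot decide the part of astrocyte content in the Ncan difference, which was not tested.

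Of 9 measured oligodendrocyte markers, 8 were negative on each diet and 0 were called, with medians of -0.60 on HFD and -0.63 on SD. Their mean ran from 9.15 to 9.38 in cKO and from 9.65 to 9.94 in controls on HFD, and from 8.89 to 10.12 in cKO and from 9.32 to 10.98 in controls on SD. Their part in the differences of Vcan, Tnr and Bcan was not tested. Of the oligodendrocyte precursor markers 7 were tested and 0 were called, and their mean stayed between 8.03 and 8.49 over the 12 arrays. Of 6 microglia, 7 vascular and 3 tanycyte markers tested, 0 were called on either diet. All 7 vascular markers were negative on HFD, with a median of -0.17, and their mean ran from 7.59 to 7.75 in cKO and from 7.78 to 7.96 in controls, with no overlap. On SD 5 of the 7 were positive. All 3 tanycyte markers were positive on both diets, with medians of 0.13 on HFD and 0.23 on SD. The part of these markers in the members' differences was not tested.

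The genes most like Ncan over the 12 VMH arrays, by Pearson's r among all genes tested, were Mmp14 (r = 0.985), Fabp7 (0.976), Tmem44 (0.964), Gm14328 (0.961), Npas2 (0.961) and Sema5b (0.96). The arrays fall into 2 sets by genotype, so r mainly carries that difference. The r of the deviations from group means, over the same 12 arrays, was 0.83 for Mmp14 and 0.84 for Sema5b, a semaphorin of axon guidance, and from 0.525 to 0.577 for Tmem44, Gm14328, the clock factor Npas2 and Fabp7, which encodes a lipid carrier of radial glia and astrocytes. Fabp7 averaged 16.03 ± 0.11 in cKO and 12.05 ± 0.81 in controls on HFD, and 16.13 ± 0.10 in cKO and 12.42 ± 0.43 in controls on SD (SD, n = 3 each). Among members, r with Ncan was highest for Cspg5 at 0.784 and lowest for Vcan at -0.766, and their deviations gave 0.26 and -0.241. These are descriptions over arrays that share tissue and processing.

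**Figure D3:**
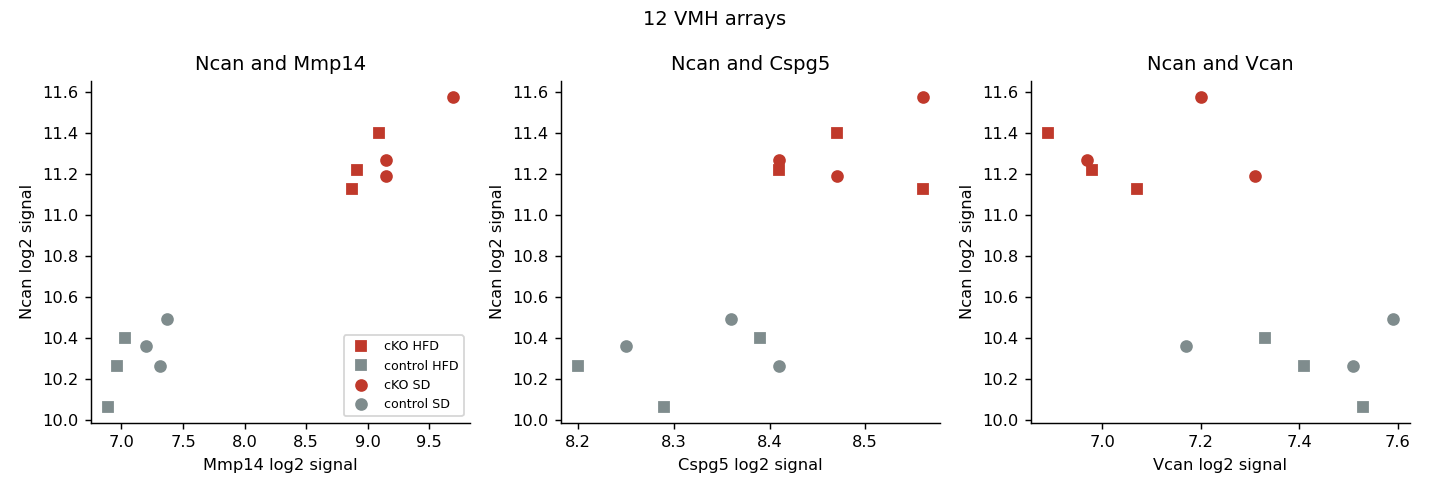
Log2 signal of Ncan (vertical axes) against that of Mmp14, Cspg5 and Vcan (horizontal axes) on the 12 VMH arrays; red marks cKO and grey control, squares HFD and circles SD. The cKO arrays lie above 11.1 and the control arrays below 10.5 in Ncan; r over the 12 arrays was 0.985 for Mmp14, 0.784 for Cspg5 and -0.766 for Vcan.

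The genes next to Ncan on its chromosome were not called with it. In the gene order of GRCm38.p6 Hapln4 is the protein-coding gene next to Ncan, and Hapln1 and Vcan are likewise neighbours. Of the 10 nearest protein-coding genes of Ncan, 5 on each side, 7 were tested in VMH and 0 were called on either diet. Their differences ran from -0.05 (Tm6sf2) to 0.24 (Hapln4) on HFD and from -0.15 (Hapln4) to 0.11 (Rfxank) on SD, the extremes being named after their values were seen.

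In BAT the Tnc signal stood apart on the arrays of control mice on HFD. Its log2 signal was 4.04, 3.97 and 4.18 on cKO arrays on HFD, 4.99, 4.87 and 4.85 on control arrays on HFD, 3.97, 4.22 and 4.06 on cKO arrays on SD, and 4.14, 4.04 and 4.08 on control arrays on SD. The 3 control arrays on HFD stood above the other 9, which lay between 3.97 and 4.22. Tnc passed the minimum of 4.13 only through those 3 arrays, since the means of the other groups were 4.07 to 4.09, so its differences are given as a description and it is left out of the counts below.

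HFD minus SD for Tnc was 0.81 in controls (95% interval 0.61 to 1.03) and -0.02 in cKO. On HFD the difference between cKO and control arrays was -0.84 (95% interval -1.05 to -0.63), and on SD it was -0.0027. Leaving out any one of the 12 arrays gave 0.77 to 0.84 for the diet difference in controls and -0.89 to -0.79 for the genotype difference on HFD. The limma fit over all genes gave the diet difference an adjusted p of 0.0263 and the genotype difference one of 0.0578, and neither is read as a test here, since the high group let Tnc pass the minimum.

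Vessel and muscle markers were read on the same BAT arrays. The mean of 7 vascular markers was 9.52, 9.67 and 9.65 on cKO arrays on HFD, 10.31, 10.72 and 10.14 on control arrays on HFD, 9.50, 9.32 and 8.98 on cKO arrays on SD and 9.53, 9.83 and 9.14 on control arrays on SD. As with Tnc, the 3 control arrays on HFD were the highest. Of the 7, Pecam1 (1.62, limma adjusted p = 0.0384) and Cldn5 (1.57, adjusted p = 0.0425), genes of endothelial cells, rose on HFD in controls, beside 0.771% of all genes called. The 7 ran from -1.19 to 2.16, with 6 positive. With the replicate number as a block, without control array 3 on SD or without control array 1 on HFD, 0 genes were called. With the muscle mean as a covariate 0.0292% were called. The part of the vascular markers in the Tnc difference was not tested. All 8 muscle markers had negative differences between HFD and SD in controls, with a median of -6.0 and 0 called. Of 8 brown adipocyte markers, 7 were positive for HFD minus SD in controls (median 1.36) and 8 in cKO (1.10), with 0 called. Over all genes 56.4% and 56.6% were positive. The part of the brown adipocyte markers in the diet differences of Tnc, Ncan and Hapln4 was not tested. The Tnc difference was 0.87 with the muscle mean as a covariate, chosen after seeing the data, and 0.79 without control array 2 on SD, the array low in muscle markers. Without that array the muscle mean of the controls split by diet, so diet and muscle RNA cannot be told apart in the value of 0.79.

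Ncan had a signal in BAT too, although Gfap stayed between 3.47 and 3.63 there, under the minimum. It was 5.73, 6.65 and 7.11 on cKO arrays on HFD, 6.43, 6.57 and 6.55 on control arrays on HFD, 5.28, 5.04 and 5.30 on cKO arrays on SD and 5.88, 6.16 and 5.48 on control arrays on SD. In both genotypes every HFD array lay above every SD array. HFD minus SD was 1.29 ± 0.30 in cKO (SE; 95% interval 0.61 to 1.97; limma adjusted p = 0.103), and 0.68 ± 0.30 in controls (adjusted p = 0.218). Without cKO array 1 on HFD it was 1.67 in cKO (adjusted p = 0.0674), and without control array 2 on SD it was 0.83 in controls (adjusted p = 0.108). In cKO the muscle marker mean split by diet too, from 5.61 to 13.53 on HFD and from 15.11 to 17.89 on SD. All 8 muscle markers were negative for HFD minus SD in cKO, with a median of -6.95 and 0 called. Diet and muscle RNA therefore cannot be told apart on the cKO arrays, for Ncan here or for Hapln4 below. The same holds for the control values given without control array 2 on SD, for Ncan, Hapln4 and Vcan. The control arrays left then had muscle means of 18.08 and 16.99 on SD, against 5.65 to 10.05 on HFD.

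The genotype difference of Ncan in BAT was not called on either diet. It was -0.02 on HFD (95% interval -0.70 to 0.66), or 0.37 without cKO array 1 on HFD (adjusted p = 0.898). It was -0.63 ± 0.30 on SD (SE; adjusted p = 0.982), where the cKO arrays lay below the control arrays with no overlap, and -0.47 without control array 2 on SD.

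Hapln4 in BAT was 4.54, 4.78 and 4.77 on cKO arrays on HFD, 4.94, 5.01 and 4.63 on control arrays on HFD, 4.20, 4.07 and 4.19 on cKO arrays on SD and 4.03, 4.69 and 4.40 on control arrays on SD. Its HFD minus SD differences were 0.55 in cKO (adjusted p = 0.128; 0.63 without cKO array 1 on HFD) and 0.49 in controls (adjusted p = 0.145). Without control array 2 on SD the difference of Hapln4 in controls was 0.65 with an adjusted p of 0.0287, and the same fit called 15.9% of all genes, against 0.771% with all arrays. Between genotypes Hapln4 differed by -0.16 on HFD (-0.083 without cKO array 1 on HFD) and by -0.22 on SD (-0.064 without control array 2 on SD). Vcan ranged from 4.37 to 6.20, with the highest value on cKO array 1 on HFD, and its differences had adjusted p of 0.616 to 0.99 on the 2 diets and in the 2 genotypes. Without that array the genotype difference of Vcan on HFD was 0.0054, against 0.54 with it, and HFD minus SD in cKO was -0.49, against 0.048 with it. Without control array 2 on SD, HFD minus SD of Vcan in controls was -0.66, against -0.39 with it, and the genotype difference on SD was -0.16, against 0.11 with it.

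Of the 3 tested members other than Tnc, 0 were called between diets in BAT of control mice, beside 0.771% of all genes, and 1 of 3, Ncan, did not overlap, beside 25.2%. In cKO mice 0 of 3 were called, beside 0% (0 genes by limma, with 3920 at an unadjusted p under 0.05), and 2 of 3, Ncan and Hapln4, did not overlap, beside 29%. Between genotypes 0 of 3 were called on HFD, beside 0% (0 genes, with 1414 at an unadjusted p under 0.05), and all 3 overlapped, beside 19.8% that did not overlap among all genes. On SD 0 of 3 were called, beside 0% (0 genes, with 610 at an unadjusted p under 0.05), and 1 of 3, Ncan, did not overlap, beside 7.24%. The interaction was called for 0 of 3, beside 0% (0 genes, with 649 at an unadjusted p under 0.05). The other 6 members, Bcan, Acan, Cspg5, Hapln1, Tnr and Ptprz1, stayed between 3.32 and 3.88 on all 12 BAT arrays and were not tested.

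**Figure D4:**
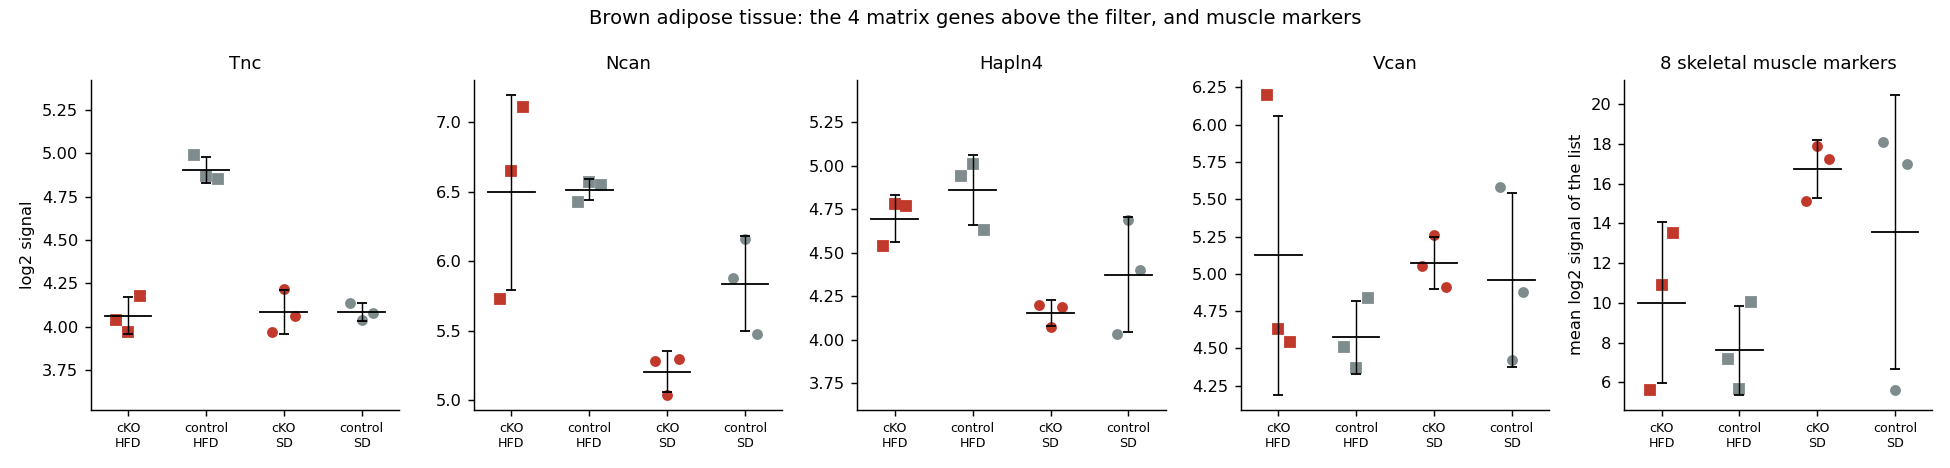
Log2 signal (vertical axes) of the 4 members above the minimum on the 12 BAT arrays, and the mean log2 signal of 8 skeletal muscle markers, by group (horizontal axis: cKO and control on HFD, cKO and control on SD); points are arrays, horizontal lines group means and bars the SD, n = 3. For Tnc the control arrays on HFD lie between 4.85 and 4.99 and all others between 3.97 and 4.22; the scales differ between panels.

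The rest of the matrix machinery gave 0 calls between diets in BAT of control mice. Of 17 tested genes of chondroitin chain synthesis, Fam20b was at 0.36 and Chsy1 at -0.96. Of 6 hyaluronan genes, Ugdh was at -0.12 and Hyal2 at 0.28. Of 9 proteases and inhibitors, Timp2 was at -0.71 and Adamts5 at -1.30, and of 12 receptors and partners, Lrp1 was at 0.55 and Fgfr1 at -0.43.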

How the data were processed

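RNA of VMH and BAT was measured on 24 arrays. The values deposited, 1 column for each array, are log2 signals from 2.12 to 19.9. Affymetrix Expression Console 1.1.1 and PLIER 2.0 are the authors' tools, per the submitters' processing notes; their roles, the normalization between arrays and the build were not given in the sources used here. The median of an array ran from 5.48 to 5.57 in VMH and from 4.07 to 4.16 in BAT, and no comparison crosses tissues.

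The 10 members and all gene lists were chosen with earlier results of these data known. A gene with several features was represented by its brightest. Group means were fitted to the deposited values of each tissue (limma 3.58.1, R 4.3.3), and the procedure was tested on simulated data. Named genes were all members, up to 4 called genes of another list by smallest p or else its 2 brightest, the 6 genes most like Ncan, Arntl, and Mmp14, Fabp7 and Gfap beside Ncan. The values were also analysed after quantile normalization, with 16 added on the linear scale, without the filter, with a gene's features averaged, with array weights, with the replicate number as a block, with only the compared groups in the fit, and without each array. The REML estimate of the array weights did not converge in BAT and was not used there. The gene-by-gene estimate took its place in BAT, and like the muscle and astrocyte covariates it was added after seeing the data. Deviations of same-numbered arrays had correlations of -0.351 to 0.28 in VMH and of -0.772 to 0.39 in BAT, and the arrays were treated as unpaired. The check was made within each tissue only. It cannot show whether arrays with the same number share an animal or a batch.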

Additional observations from a re-analysis of the deposited data

How the results depend on the processing

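Of 935 values of 47 results under the alternatives, 889 were labelled unchanged. For a tested difference this meant the same sign and the same side of the threshold. For a count of called members it meant the same count, and for Ncan on HFD a shift smaller than its within-group SD. Most of these results were not called at the start, and for them staying uncalled with the same sign was labelled unchanged. In VMH on SD, the count of called members was 0 with only the groups compared, where Ncan differed by 0.98 (limma adjusted p = 0.0941). That fit called 0.0617% of all genes, against 0.271% with all 12 arrays, and fewer arrays then estimate the spread. Under the other alternatives that kept all 12 arrays the adjusted p of Ncan ran from 0.00421 to 0.0179, and without 1 array the difference ran from 0.86 to 1.05. On HFD the count was 2 with the astrocyte covariate, where Vcan was -0.52 (limma adjusted p = 0.0235). That fit called 0.611% of all genes, against 0.302% without the covariate. Ptprz1 on HFD was -0.062 with quantile normalization. The cause of either change was not tested.

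In BAT the counts include Tnc, which passed the minimum through its high group. Between genotypes on HFD, the count was 1 with array weights, where Tnc was -0.85 and 0.0409% of all genes were called, against 0% with equal weights. It was 0 to 1 without single arrays, where Tnc ran from -0.89 to -0.79. The count of 1 came without control array 3 on HFD, where 0.0934% of all genes were called. Between diets in controls, the count was 3 with array weights, for Tnc, Ncan and Hapln4, where the same fit called 39.4% of all genes, against 0.771% with equal weights. It was 0 with the muscle covariate (Tnc 0.87) and with the replicate number as a block (Tnc 0.81), where 0.0292% and 0% of all genes were called. It ran from 0 to 2 without single arrays (Tnc 0.77 to 0.84). It was 0 without control array 1 on HFD or control array 3 on SD, where 0% of all genes were called. It was 2 without control array 2 on SD, where 15.9% of all genes were called. In cKO mice between diets the count was 2 with array weights, for Ncan and Hapln4, where 31.2% of all genes were called, against 0% with equal weights. The planned array weights could not be fitted in BAT: their estimate did not converge and gave control array 3 on SD a weight of 0, where the gene-by-gene estimate used in its place gave 4.51. The replicate block changed no other call of a member.

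Signs of small differences turned without single arrays: Bcan in VMH on SD ran from -0.19 to 0.051, the VMH interaction of Ncan from -0.055 to 0.15, Tnc in BAT on SD from -0.072 to 0.053, and in BAT of cKO mice between diets Tnc from -0.075 to 0.050 (0.038 with the muscle covariate) and Vcan from -0.49 to 0.34 (-0.10 with array weights). In BAT the Ncan genotype difference on HFD ran from -0.33 to 0.37 (0.011 with quantile normalization, 0.15 with array weights) and that of Vcan on SD from -0.16 to 0.42. Each member has 1 feature, so taking the mean of a gene's features left the members' values as they were. Acan and Tnc in VMH, and 6 members in BAT, had signals under the median of the table and were not tested there.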
